A study of Bos taurus with 11 samples.

Results

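The genes described here are ribosome assembly and nucleolar factors, whose products build the ribosome or reside in the nucleolus, measured in blood mononuclear cells of 2 cattle breeds. They are the genes whose array name starts with UTP, NOP, NOL or RRP and a digit (28 genes), together with 18 further genes chosen by name, among them FBL, DKC1, NCL, NPM1 and UTP14A. The rule found 46 of the 17216 genes on the array, covered by 107 of its 43653 probes. The rule for the genes reads names only, while the choice of a gene's brightest probe over all arrays also reads the signals of both breeds. The members were chosen with earlier results of these data known, UTP14A among them. The tested animals were 5 Ladakhi cattle, native to the high altitude of Ladakh, and they were set against 6 Sahiwal cattle from low altitude. The Sahiwal samples also carry the label basal. All 11 animals were female, no treatment or age is given, and each array carries the RNA of 1 animal. The labels name the cells as PBMCs (the mononuclear fraction of blood, mostly lymphocytes with some monocytes) and do not state how they were isolated.

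Ribosomes are made in the nucleolus, where RNA polymerase I transcribes a long precursor of the ribosomal RNAs. The small subunit processome, a large particle built on the U3 small nucleolar RNA, folds and cleaves the precursor of the small subunit. Box C/D and box H/ACA ribonucleoproteins methylate and pseudouridylate the RNA, and a separate group of factors assembles the large subunit. In lymphocytes this machinery is known to increase when resting cells are activated to grow and divide.

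A level below is the log2 processed signal of a gene's brightest probe minus the 75th percentile of its array, taken over the 2578 probes well above background on all 11 arrays. A difference is always Ladakhi minus Sahiwal, in log2 units. The Ladakhi arrays were dimmer: 12.3% ± 2.55 of spots were well above background (SD, n = 5), against 43.0% ± 3.09 on the Sahiwal arrays (SD, n = 6). The lowest level that counted as well above background was -3.67 on average over the Ladakhi arrays and -8.12 over the Sahiwal arrays. Correlations between animals over the measured probes ran from 0.627 to 0.785 among Ladakhi and from 0.893 to 0.953 among Sahiwal. Breed coincided with altitude, the scanner model, the image extraction version and the slide. The breed therefore cannot be told apart from altitude or the platform in what follows. In RNA of mixed cells, fewer cells of a type and less RNA per cell cannot be told apart either. The p-values measure the spread between these animals, and the number of arrays limits the precision.

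Of the 46 genes, 14 were measured in both breeds, meaning that their signal stood well above background on 4 or more Ladakhi and 4 or more Sahiwal arrays. That is 30.4% of them, beside 15.3% of all genes on the array. A further 13 were above background in Sahiwal but on 1 to 3 Ladakhi arrays only, and 13 were above background in Sahiwal and on no Ladakhi array. The remaining 6, NOL10, RRP8, NIP7, RRP9, NOL9 and NOL4, were above background on fewer than 4 Sahiwal arrays and on no Ladakhi array, and no difference is given for them. Between 12 and 24 of the 46 genes stood above background on a single Ladakhi array, and between 40 and 42 on a single Sahiwal array.

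**Figure D1:**
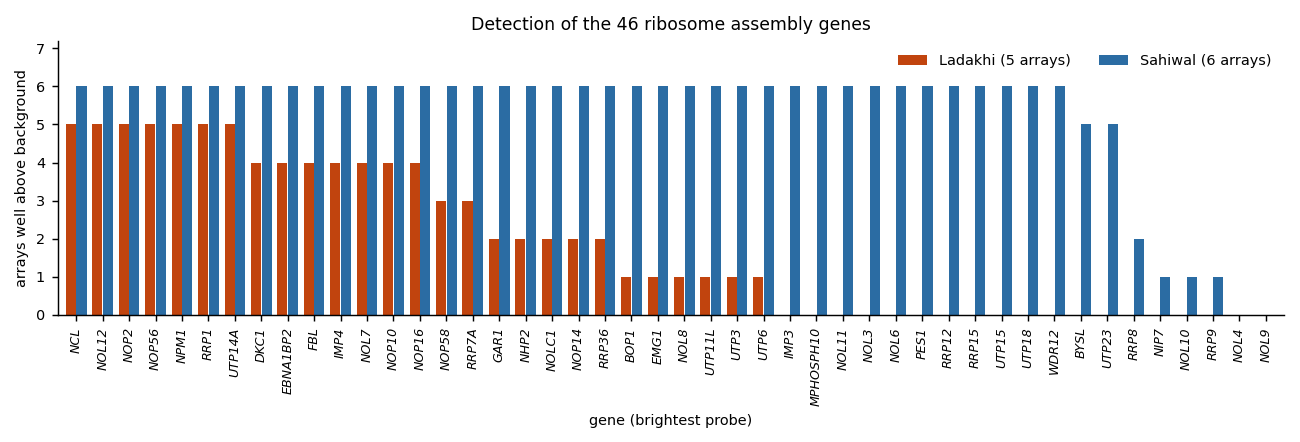
Number of arrays on which the brightest probe of each of the 46 genes was well above background, in Ladakhi (orange, of 5) and Sahiwal (blue, of 6). In Sahiwal 38 genes were above background on all 6 arrays, while in Ladakhi 7 were above background on all 5 and 19 on none.

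Among the 14 measured genes, NOL12 was higher in Ladakhi, UTP14A and NOP16 were lower, and 11 did not pass the test (limma, Benjamini-Hochberg adjusted p under 0.05 over 17866 probes). Of all 2628 measured genes 32% changed, 17.4% higher and 14.5% lower, so the 3 called of 14 are no larger a share than that of the array as a whole. The median difference of the 14 was -0.10, beside -0.01 over all measured genes, with 7 genes below 0 and 7 above. The breeds did not overlap in UTP14A and NOL12, and in 21.2% of all measured genes. Each of the 14 genes had a Sahiwal mean above the Ladakhi detection limit. A higher Ladakhi level was always measurable, a lower one only down to that limit. Genes far lower in Ladakhi left the 14, as NOLC1 did, with a Sahiwal mean of -0.93 and 2 Ladakhi arrays above background. The counts, signs and median above therefore leave out such genes.

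**Figure D2:**
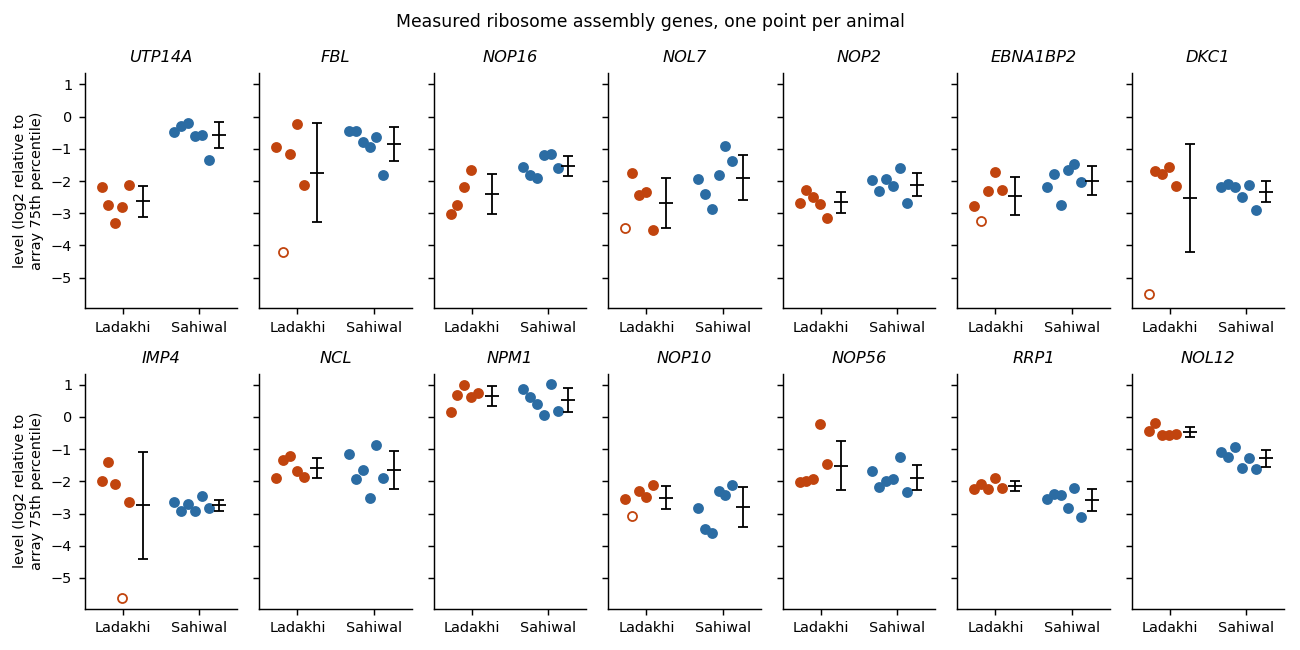
Levels of the 14 measured genes, ordered by their difference, with 1 point per animal (Ladakhi orange, Sahiwal blue) and the mean and SD of each breed beside the points. Open points lie below the detection limit of their array; all Ladakhi points of UTP14A lie below all Sahiwal points, and all Ladakhi points of NOL12 lie above.

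The small subunit group of 19 genes held the largest difference of the 14 measured genes. UTP14A encodes a subunit of the small subunit processome. Its levels were -2.20, -2.74, -3.30, -2.79 and -2.13 in the Ladakhi animals, against a lowest value of -1.35, a median of -0.52 and a highest value of -0.19 in Sahiwal. Every Ladakhi animal lay below every Sahiwal animal. The mean was -2.63 ± 0.48 in Ladakhi and -0.58 ± 0.41 in Sahiwal (SD), a difference of -2.06 ± 0.30 (SE), or 4.16-fold lower, with a limma adjusted p of 0.000288.

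UTP14A is also represented by 3 further probes, and all 4 gave negative differences. The brightest probe lies at chrX:6573140-6573198 on the plus strand (build HGSC Btau_3.1, positions from the array files) and is the 3′-most of the 3 on chromosome X. The second measured probe, 174 bases upstream at chrX:6572965-6573024, had a difference of -1.05 ± 0.42 (SE, limma adjusted p 0.0604). Another, here called the partner probe, at chrX:6572977-6573036, overlaps the second by 48 bases, was above background on 3 Ladakhi arrays. Its difference was -1.85 (limma adjusted p 9.26e-06) after dim signals were raised to the lowest level well above background of their array, which is called a raised difference from here on. Its sequence differs from that of the second by C38G, counted from 1 at the 5′ end of the partner probe. The last probe carries the name UTP14A on the array but lies on chromosome 21 and matched the record LOC505600, with a difference of -1.37 ± 0.53 (SE, limma adjusted p 0.0511). By the values given, the brightest and the partner probe passed the test. The partner is given by its raised fit and the others are not. Raised in the same way, the second probe was at -0.96 (limma adjusted p 0.0260) and the chromosome 21 probe at -0.94 (limma adjusted p 0.0100), both past the test. The stretches below show the brightest probe around its AATAAA (in capitals), the hexamer that commonly precedes the end of a messenger RNA, and the overlapping pair around the base that differs (in capitals).
UTP14A brightest probe, bases 23 to 52: ccacattttagaAATAAAggcatttttatc
UTP14A second probe, bases 31 to 60: acgtcacaaaaaacacctgGagaataactg
UTP14A partner probe, bases 19 to 48: acgtcacaaaaaacacctgCagaataactg

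IMP4, a protein bound to the U3 RNA, gave no difference (0.00 ± 0.58, SE, limma adjusted p 1). Its levels were -1.99, -1.39, -2.09, -5.62 and -2.64 in the Ladakhi animals, against a lowest value of -2.91, a median of -2.78 and a highest value of -2.47 in Sahiwal. Ladakhi animal 4 was not above background and carries a surrogate value there. The raised difference was 0.41 (limma adjusted p 0.285). Of the other Ladakhi animals, which ran from -2.64 to -1.39, animal 5 lay within the Sahiwal range and the rest above it. A second IMP4 probe, 5 bases downstream and sharing 55 identical bases, was above background on 1 Ladakhi array and had a raised difference of -0.60 (limma adjusted p 0.0631). These neighbouring probes at chr2:1289198-1289257 and chr2:1289203-1289262 (plus strand) are shown by their first 30 bases, with the shared bases in capitals.
IMP4 measured probe: cgtgtACATTCATCATCTGGGAATGGGAAT
IMP4 second probe: ACATTCATCATCTGGGAATGGGAATAAAAG

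Of the other 17 small subunit genes, 7 were above background on 1 to 3 Ladakhi arrays and 9 on none, and RRP9 was also dim in Sahiwal. For these genes the raised difference is given, which understates a lower level in Ladakhi. UTP6, a scaffold protein of the processome, was then lower in Ladakhi, with a raised difference of -1.02 ± 0.38 (SE, limma adjusted p 0.0226). Its values before raising were -4.61, -3.44, -4.38, -3.86 and -2.34 in Ladakhi, with only animal 5 above background, against a lowest value of -3.06, a median of -2.27 and a highest value of -1.46 in Sahiwal. The breeds overlapped through Ladakhi animal 5. The call was lost without either of 2 Ladakhi or either of 2 Sahiwal animals, one at a time (lowest of the 11 differences -1.25, highest -0.79).

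NOP14, which binds early in small subunit assembly, had a raised difference of -0.48 (limma adjusted p 0.162). UTP3, EMG1, which methylates the small subunit RNA, UTP11L, RRP7A and RRP36 had raised differences of -0.06, -0.01, -0.01, 0.10 and 0.43, none past the test. The Sahiwal means of UTP3, EMG1, UTP11L and RRP36 were -3.48, -3.54, -3.60 and -3.63, beside a Ladakhi limit of -3.67. A lower Ladakhi level could therefore hardly show, and no direction could be read for these genes. RRP7A stood above background on 3 Ladakhi arrays, where its levels of -2.55, -2.76 and -2.47 lay within the Sahiwal range of -3.56 to -2.09.

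On no Ladakhi array, IMP3 and UTP18 had a bound below 0. IMP3, a further U3-bound protein, had Sahiwal levels of -2.87 at the lowest, -2.39 at the median and -2.25 at the highest. The Ladakhi values, all dim or surrogate, lay between -6.42 and -4.74. Set against the Ladakhi limit, IMP3 was at least 2.24-fold lower in Ladakhi (-1.16 ± 0.30, SE, limma adjusted p 0.00218). UTP18, a scaffold protein of the same processome subcomplex as UTP6, was at least 2.00-fold lower (-1.0 ± 0.32, SE, limma adjusted p 0.0097), from Sahiwal levels of -3.10 at the lowest, -2.72 at the median and -1.99 at the highest. Both bounds concern the measured means, since every Ladakhi signal of these genes lay below the limit of its array, and both carry the SE given. The calls for IMP3 and UTP18 held when any 1 of the 11 arrays was left out. The other IMP3 probe, 287 bases upstream and on 1 Ladakhi array, had a raised difference of 0.53 (limma adjusted p 0.138) with a Sahiwal mean of -4.13, below the Ladakhi limit.

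Across all 46 genes, 2 of the 13 on no Ladakhi array were lower after raising, beside 2.37% of all such genes, and the same 2 of 13 had a bound below 0, beside 8.34%. MPHOSPH10, NOL6, NOL11, UTP15, UTP23, RRP12 and BYSL completed the small subunit group on no Ladakhi array. Their Sahiwal means ran between -7.14 for BYSL and -4.10 for NOL11, all below the Ladakhi limit of -3.67, so no direction could be read. These genes encode U3-bound proteins, processome subunits and factors that accompany the small subunit towards export.

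The box C/D group consists of FBL, NOP56 and NOP58, the methyltransferase and the paired scaffold proteins of the ribonucleoproteins that methylate ribosomal RNA. FBL levels were -0.94, -4.22, -1.16, -0.23 and -2.13 in the Ladakhi animals, against a lowest value of -1.82, a median of -0.71 and a highest value of -0.44 in Sahiwal. Ladakhi animal 2 was not above background, and Ladakhi animal 4 was above every Sahiwal animal. The difference of -0.89 ± 0.57 (SE, limma adjusted p 0.223) did not exceed the spread, which was an SD of 1.54 in Ladakhi and 0.517 in Sahiwal. Without Ladakhi animal 2 the difference was -0.27, the nearest to 0 of the 11 values with 1 array left out. A second FBL probe, 266 bases upstream, was above background on all 5 Ladakhi arrays and gave -0.44 ± 0.33 (SE, limma adjusted p 0.310).

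NOP56 levels were -2.01, -1.99, -1.93, -0.22 and -1.45 in the Ladakhi animals, against a lowest value of -2.34, a median of -1.95 and a highest value of -1.24 in Sahiwal. Ladakhi animal 4 alone lay above the Sahiwal range. The difference was 0.37 ± 0.36 (SE, limma adjusted p 0.418). NOP56 had 3 probes that overlap one another near its 3′ end, and they gave different values for overlapping stretches of messenger. The probe at chr13:53076729-53076788 (minus strand), the one whose levels are given above, was above background on 5 Ladakhi arrays. The probe 19 bases upstream was above background on 4 and had a difference of -0.59 ± 0.30 (SE, limma adjusted p 0.125). The probe 30 bases upstream was above background on none and had a raised difference of -2.22 (limma adjusted p 3.19e-06). A further probe, 1553 bases upstream, was above background on 4 Ladakhi arrays and had a difference of 0.42 ± 0.36 (SE, limma adjusted p 0.375). All 3 overlapping probes share an identical run of 30 bases, of which the capitals mark the shared part within the window shown.
NOP56 probe 30 bases upstream, bases 25 to 54: tggaccCTAGTGGGGCATAACTTAACACAG
NOP56 probe 19 bases upstream, bases 14 to 43: tggaccCTAGTGGGGCATAACTTAACACAG
NOP56 brightest probe, bases 1 to 30: CTAGTGGGGCATAACTTAACACAGGTATTC

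NOP58 was above background on 3 Ladakhi arrays, with levels of -4.60, -2.25, -1.86, -5.62 and -2.76 in the Ladakhi animals, against a lowest value of -2.78, a median of -1.77 and a highest value of -1.10 in Sahiwal. The 3 animals above background, 2, 3 and 5, lay within the Sahiwal range. The raised difference was -0.92 ± 0.37 (SE, limma adjusted p 0.0341). The call was lost in 6 of the 11 fits that left out 1 array, where the difference ran from -1.14 to -0.72 over all 11.

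The box H/ACA group of 5 genes comprises DKC1, the pseudouridine synthase, its partners NOP10, NHP2 and GAR1, and NOLC1, a chaperone that carries these particles. Both measured genes of the group, DKC1 and NOP10, did not pass the test. DKC1 levels were -5.52, -1.70, -1.78, -1.55 and -2.15 in the Ladakhi animals, against a lowest value of -2.92, a median of -2.17 and a highest value of -2.09 in Sahiwal. Ladakhi animal 1 was not above background, and animals 2, 3 and 4 lay above all Sahiwal animals. The difference was -0.21 ± 0.59 (SE, limma adjusted p 0.797), and without Ladakhi animal 1 it was 0.53 (limma adjusted p 0.152). NOP10 had a difference of 0.28 ± 0.33 (SE, limma adjusted p 0.521), with levels of -3.08 to -2.12 in Ladakhi and -3.61 to -2.12 in Sahiwal. The -3.08, in Ladakhi animal 2, was not above background.

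NOLC1 was the farthest below Sahiwal after raising of the 13 genes on 1 to 3 Ladakhi arrays. Its levels were -4.73, -3.71, -3.42, -3.77 and -3.08 in the Ladakhi animals, of which animals 3 and 5 were above background, against a lowest value of -1.20, a median of -1.05 and a highest value of -0.45 in Sahiwal. All Ladakhi values lay below all Sahiwal values, by more than the width of either range. After raising, the difference was -2.34 ± 0.26 (SE, limma adjusted p 3.25e-07), and it stayed between -2.42 and -2.24 when any 1 array was left out. The other NOLC1 probes, 1980 and 2855 bases upstream, were above background on no Ladakhi array and had Sahiwal means of -7.00 and -7.16, so no direction could be read from them.

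GAR1 levels were -3.85, -5.24, -4.04, -3.27 and -3.90 in the Ladakhi animals, of which animals 3 and 4 were above background, against a lowest value of -3.54, a median of -2.52 and a highest value of -1.63 in Sahiwal. The breeds overlapped through Ladakhi animal 4 and the lowest Sahiwal animal. The raised difference was -0.93 ± 0.35 (SE, limma adjusted p 0.0254), and the call was lost in 4 of the 11 fits that left out 1 array (range -1.12 to -0.74). NHP2 had a raised difference of -0.05 (limma adjusted p 0.889), from a Sahiwal mean of -3.23, little above the Ladakhi limit of -3.67. Over the 46 genes, the 4 lower after raising among the 13 on 1 to 3 Ladakhi arrays were NOLC1, UTP6, GAR1 and NOP58, beside 19% of all such genes.

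**Figure D3:**
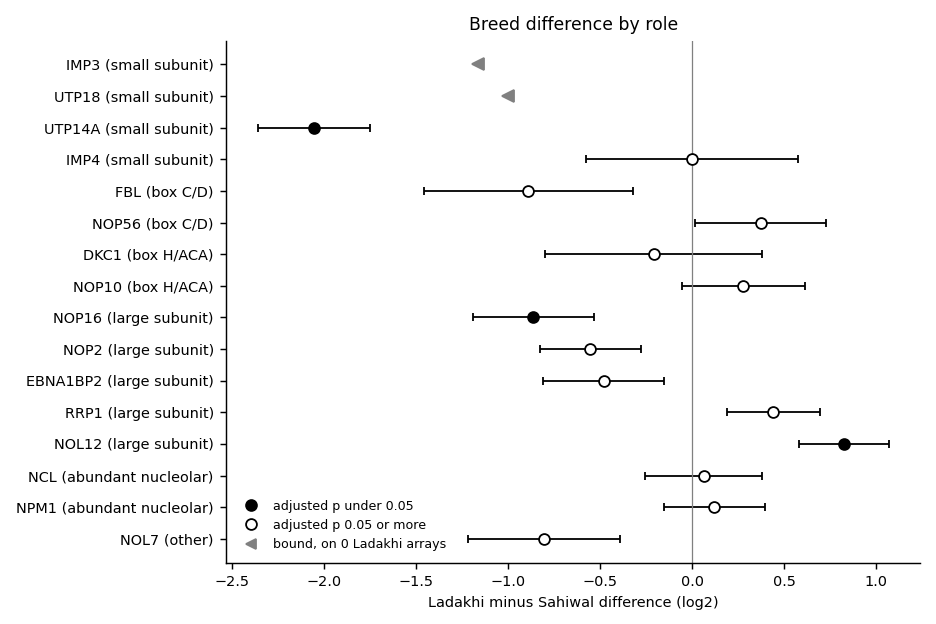
Ladakhi minus Sahiwal difference (log2, horizontal axis) with its SE for the 14 measured genes, by role, and the bounds of IMP3 and UTP18 (grey arrowheads without their SE, difference of the measured means at or left of the mark). Filled points passed the test; UTP14A is farthest to the left at -2.06 and NOL12 farthest to the right at 0.83.

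The large subunit group of 13 genes held both remaining calls, in opposite directions. NOL12, an RNA-binding nucleolar protein that takes part in ribosomal RNA processing, had levels of -0.45, -0.20, -0.56, -0.56 and -0.54 in the Ladakhi animals, against a lowest value of -1.62, a median of -1.26 and a highest value of -0.92 in Sahiwal. Every Ladakhi animal lay above every Sahiwal animal, and the Ladakhi values spanned a narrow range. The mean was -0.46 ± 0.154 in Ladakhi and -1.29 ± 0.271 in Sahiwal (SD), a difference of 0.83 ± 0.24 (SE), or 1.77-fold higher, with a limma adjusted p of 0.0149. The call held when any 1 array was left out (0.76 to 0.90). The second NOL12 probe, 334 bases upstream, was above background on no Ladakhi array and had a Sahiwal mean of -5.16, below the Ladakhi limit, so it gave no direction.

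NOP16, a component of large subunit precursors in yeast, had levels of -3.02, -2.74, -2.18 and -1.64 in Ladakhi animals 1 to 4, against a lowest value of -1.89, a median of -1.58 and a highest value of -1.16 in Sahiwal. Ladakhi animal 4 lay within the Sahiwal range. The difference was -0.86 ± 0.33 (SE, limma adjusted p 0.0483, 4 Ladakhi values). The spot of Ladakhi animal 5 carried an outlier mark and was left out, and its level would have been 2.22, above all other animals. With that spot kept the difference was 0.06, and the call was also lost without any 1 of 3 Ladakhi or 5 Sahiwal animals (range -1.11 to -0.65).

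NOP2, a methyltransferase of the large subunit RNA, had a difference of -0.55 ± 0.27 (SE, limma adjusted p 0.118), with levels of -3.15 to -2.28 in Ladakhi and -2.67 to -1.60 in Sahiwal. RRP1, a nucleolar protein known from large subunit assembly in yeast, had levels of -2.25, -2.08, -2.24, -1.90 and -2.22 in the Ladakhi animals, against a lowest value of -3.11, a median of -2.48 and a highest value of -2.19 in Sahiwal. Its difference was 0.44 ± 0.25 (SE, limma adjusted p 0.173), and the breeds overlapped through 1 Sahiwal animal, the highest.

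EBNA1BP2, known in yeast as an early large subunit factor, had levels of -2.76, -3.25, -2.32, -1.71 and -2.29 in the Ladakhi animals, against a lowest value of -2.76, a median of -1.91 and a highest value of -1.48 in Sahiwal. Ladakhi animal 2, at -3.25, was not above background. The breeds overlapped, and the difference was -0.48 ± 0.33 (SE, limma adjusted p 0.254). A second EBNA1BP2 probe lies 14 bases upstream and overlaps the first by 46 bases, in which the probes differ by G19A and T35C (counted from 1 at the 5′ end of the brightest probe). The second probe was above background on 2 Ladakhi arrays and had a raised difference of -1.59 (limma adjusted p 0.000135). Both lie on the plus strand, at chr3:109774396-109774455 and chr3:109774382-109774441, and are shown where they overlap, with the bases that differ in capitals.
EBNA1BP2 brightest probe, bases 13 to 42: aaggcaGttggatcccttctgtTagcttct
EBNA1BP2 second probe, bases 27 to 56: aaggcaAttggatcccttctgtCagcttct

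The remaining large subunit genes gave no call with a readable direction. BOP1 and NOL8, each on 1 Ladakhi array, came out higher after raising, by 0.82 and 2.54, but their Sahiwal means of -4.42 and -6.00 lay below the Ladakhi limit, where raising can only give a higher value. PES1 and WDR12, which form a complex with BOP1 needed for the large subunit RNA, and RRP15 were on no Ladakhi array, with Sahiwal means of -5.04, -4.62 and -5.96. NIP7, NOL9 and RRP8 were dim in both breeds.

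NCL and NPM1, the abundant nucleolar proteins nucleolin and nucleophosmin, were above background on all 11 arrays. NPM1 levels were 0.16, 0.67, 1.0, 0.63 and 0.76 in the Ladakhi animals, against a lowest value of 0.05, a median of 0.51 and a highest value of 1.01 in Sahiwal. The Ladakhi range lay inside the Sahiwal range, and the difference was 0.12 ± 0.27 (SE, limma adjusted p 0.748). This rests on the brightest of 3 NPM1 probes. The others, 5366 and 4538 bases upstream, were above background on 6 Sahiwal arrays and on no Ladakhi array. Their raised differences were -0.57 (limma adjusted p 0.130) and 0.16 (limma adjusted p 0.680). Their Sahiwal means were -3.11 and -3.84, the latter below the Ladakhi limit, so it gave no direction. NCL levels were -1.90, -1.35, -1.20, -1.67 and -1.86 in the Ladakhi animals, against a lowest value of -2.50, a median of -1.76 and a highest value of -0.87 in Sahiwal. Its difference was 0.06 ± 0.32 (SE, limma adjusted p 0.887), again with the Ladakhi values inside the Sahiwal range.

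The other NCL probes gave other differences than the brightest one, each with a limit. A probe 392 bases upstream, on 3 Ladakhi arrays, had a raised difference of -0.72 (limma adjusted p 0.0582), which did not pass the test. A probe 1798 bases upstream was on no Ladakhi array. Its Sahiwal mean of -6.26 lay below the Ladakhi limit, so it gave no direction. A probe 6406 bases upstream on the genome, at chr2:123409328-123409387 (minus strand), had levels of -4.47, -2.89, -3.02, -2.15 and -2.63 in the Ladakhi animals, all above the Sahiwal levels, whose highest was -5.65. The value of -4.47, in Ladakhi animal 1, was not above background. The difference of this probe was 3.58 ± 0.44 (SE, limma adjusted p 8.41e-05). Its Sahiwal mean of -6.61 lay below the Ladakhi limit, so it could be measured only with a higher Ladakhi level. The probe, rich in adenine, is shown whole in lower case because its difference was unlike that of the brightest NCL probe.
NCL upstream probe: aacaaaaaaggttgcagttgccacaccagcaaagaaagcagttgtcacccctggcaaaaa

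Of the 4 genes with no assembly role assigned here (NOL3, NOL4, NOL7 and NOL10), NOL7, a nucleolar protein, was measured. Its levels were -3.47, -1.74, -2.42, -2.33 and -3.53 in the Ladakhi animals, against a lowest value of -2.87, a median of -1.88 and a highest value of -0.92 in Sahiwal. Ladakhi animals 1 and 5 were below all Sahiwal animals and the other Ladakhi animals within their range, with a difference of -0.81 ± 0.41 (SE, limma adjusted p 0.129). Of these, Ladakhi animal 1 was not above background. NOL3, known as an inhibitor of cell death and not as an assembly factor, was on no Ladakhi array and had a Sahiwal mean of -6.25.

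**Figure D4:**
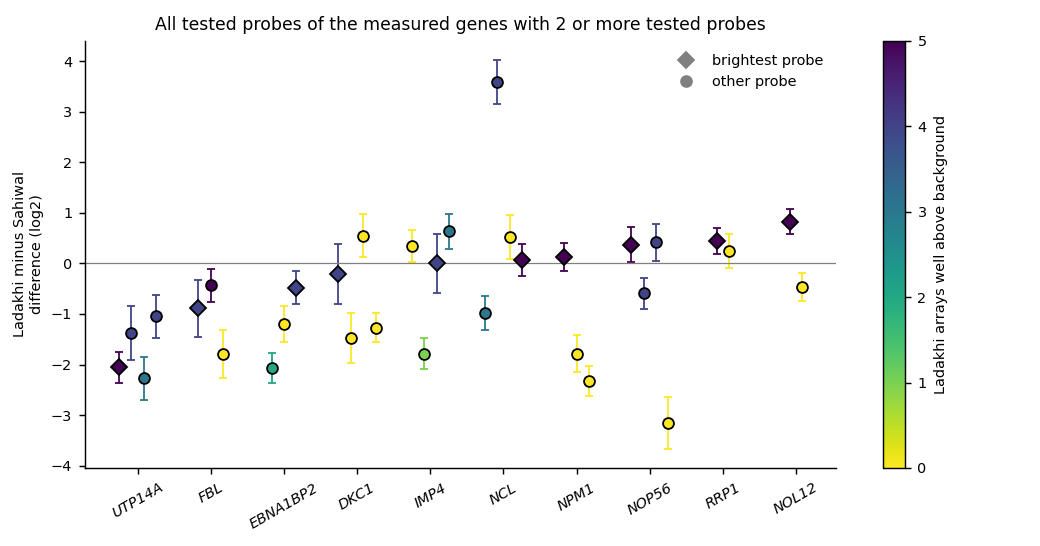
Ladakhi minus Sahiwal difference (log2, vertical axis) with its SE for every tested probe of the measured genes with 2 or more tested probes, coloured by the number of Ladakhi arrays above background. Diamonds mark the brightest probe; differences of probes on few Ladakhi arrays rest on dim signals and are fitted before raising, as in the NOP56 probe at -3.15.

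Overlapping probes of a gene, which share part of their bases, served as a check on how far a difference depends on the probe. Among the 46 genes there were 6 such pairs in 4 genes (UTP14A, IMP4, NOP56 and EBNA1BP2), offset by at most 40 bases. The pairs shared between 30 and 55 bases, and 2 of them differed within the shared bases. The raised differences within a pair lay 1.09 apart in the median, and in 4 of the 6 pairs (66.7%) more than 1 apart. Over all genes, 678 pairs in 587 genes had a median gap of 0.48 between raised differences, and 22.3% lay more than 1 apart. Before raising, the median gap was 1.69 in the 6 pairs, with 83.3% more than 1 apart, and 0.61 over all genes, with 29.5%. The NOP56 pairs share probes, so the 6 are not independent.

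The position of a probe along its gene moved with its detection in Ladakhi. In 22 of the genes with probes at least 200 bases apart, the 3′-most probe was above background on more Ladakhi arrays than the 5′-most in 14 (63.6%) and on fewer in 2, beside 53.7% and 10.5% of 3374 genes on the array. The exceptions were IMP3 and NOP58. The hexamer AATAAA, searched on the strand given for the probe, was present in 4 of 20 measured probes of these genes, in 3 of 21 on 1 to 3 Ladakhi arrays and in 3 of 43 on none. Over all probes the shares were 20.8%, 14.6% and 10.1%, and 9.35% of all 43653 probes hold it.

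Animals differed in how the 14 measured genes stood as a group. Sahiwal animal 5 had the highest Sahiwal level in 9 of the 14 genes, with a median deviation from the breed mean of 0.38, beside 0.10 over all measured genes. Sahiwal animal 6 had the lowest in 7, with a median deviation of -0.33, beside -0.03. In Ladakhi the extremes were less one-sided, with animal 4 highest in 6 genes and animal 1 lowest in 6. The median SD between animals was 0.53 in Ladakhi and 0.39 in Sahiwal, beside 0.52 and 0.38 over all measured genes. Taken against each Sahiwal slide alone, the UTP14A difference was -2.25 (2 animals) and -1.96 (4 animals), that of NOP16 -0.72 and -0.94, and that of NOL12 0.71 and 0.89.

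Lists of other genes of the same process are given by their measured genes, to be read against the 32% of all measured genes that changed, and by those on 0 to 3 Ladakhi arrays that were lower after raising, beside 8.06% of all such genes. Of 32 further small subunit assembly genes 3 were measured and none passed the test, with FCF1 at 0.79 ± 0.41 and SNU13 at 0.07 ± 0.33 (SE), while 3 of 26 on 0 to 3 Ladakhi arrays were lower after raising. Of 50 further large subunit genes 10 were measured, 2 higher and 2 lower (median -0.21), and 4 of 34 were lower after raising. Among them GNL3L, a nucleolar GTPase, was higher by 1.08 ± 0.26 (SE, limma adjusted p 0.00515), and DDX24, an RNA helicase, was lower at -1.55 ± 0.26 (SE, limma adjusted p 0.000556). Of 21 RNA polymerase I genes 6 were measured and 1 was lower, POLR2K, a subunit that RNA polymerase I shares with other nuclear RNA polymerases, at -2.15 ± 0.46 (SE, limma adjusted p 0.00251), where 1 Sahiwal spot was saturated and the size is therefore not exact. POLR2L was at 0.42 ± 0.24 (SE), and 0 of 13 were lower after raising.

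Of 16 genes of the RNA exosome, which trims precursor ends, and its helpers, 2 were measured and none passed, XRN2 at -0.73 ± 0.32 and EXOSC6 at -0.62 ± 0.34 (SE), and 2 of 14 were lower after raising. Of 11 assembly chaperones of the small nucleolar particles 3 were measured and none passed, PIH1D1 at 0.49 ± 0.27 and ZNHIT3 at -0.23 ± 0.32 (SE), and 1 of 6 was lower after raising. Of 11 genes of the MYC network, whose factors drive ribosome production, 3 were measured and 1 was lower, MXI1, a MYC antagonist, at -1.19 ± 0.39 (SE, limma adjusted p 0.0259), while MXD4 was at 0.74 ± 0.35 (SE). MYC itself, named after its values were seen, was the 1 of 5 lower after raising, with a raised difference of -3.37 (limma adjusted p 4.58e-07). It was above background on 2 Ladakhi and 5 Sahiwal arrays, with mean levels before raising of -4.17 in Ladakhi and -0.08 in Sahiwal.

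Markers of T cells (CD3D, CD2) and monocytes (LYZ, CSF1R) were measured in both breeds, as the label PBMC implies, and some differed between them. Of 14 T cell markers 7 were measured, 3 higher and 0 lower in Ladakhi, with summed levels (log2 of the sum over the brightest probes of the whole list) of 2.49 to 3.24 in Ladakhi and 1.32 to 2.61 in Sahiwal. Among the 3 higher was CD2, whose Sahiwal mean of -5.10 lay below the Ladakhi limit. It could be measured only with a higher Ladakhi level. Of the 5 T cell markers on 0 to 3 Ladakhi arrays, 2 were lower after raising, CD3E at -1.66 (limma adjusted p 0.00644) and CD3G at -1.32 (limma adjusted p 0.00523), both named after their values were seen. Of 10 NK cell markers 4 were measured, 2 higher and 0 lower, with summed levels of 1.34 to 2.20 in Ladakhi and -0.99 to 1.36 in Sahiwal. Of 10 monocyte markers 2 were measured and 1 was lower (LYZ, -1.82 ± 0.44, SE, limma adjusted p 0.00517), with summed levels of 0.11 to 2.23 in Ladakhi and 1.79 to 3.19 in Sahiwal. Of 11 neutrophil markers 2 were measured and 1 was lower (S100A8, -2.22 ± 0.48, SE, limma adjusted p 0.00287). Their summed levels were 1.04 to 2.42 in Ladakhi and 2.09 to 4.24 in Sahiwal. The NK genes NCR1, KLRB1, KLRD1 and KLRF1, the monocyte genes CD163, FCGR1A and ITGAM, and the neutrophil genes CXCR2, CATHL1, CAMP and MPO were dim in Sahiwal. After raising, 0 of 2 NK cell, 2 of 5 monocyte and 1 of 5 neutrophil markers on 0 to 3 Ladakhi arrays were lower.

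Of the 8 red cell and 6 platelet markers 1 each was measured, HBB and PF4, and neither passed the test, with summed levels of -1.27 to -0.61 in Ladakhi and -3.48 to 0.81 in Sahiwal for red cells, and 0.93 to 1.36 in Ladakhi and -1.87 to 2.27 in Sahiwal for platelets. Of 13 proliferation markers 5 were measured and none passed the test, with a median difference of 0.15 and summed levels of -0.06 to 1.16 in Ladakhi and 0.10 to 0.95 in Sahiwal. Of those on 0 to 3 Ladakhi arrays, 0 of 2 red cell, 0 of 3 platelet and 0 of 7 proliferation markers were lower after raising. The part of cell composition in the differences of UTP14A, NOLC1, NOP16 and NOL12 was not tested.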

How the data were processed

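Total RNA of PBMCs from 11 cattle was labelled with Cy3 and hybridised to bovine oligonucleotide arrays, per the labels' protocols. The deposited intensity values, per the file headers, are the Feature Extraction processed signal, background-subtracted and spatially detrended, with a surrogate value for spots not above background. Per the file headers, an Agilent scanner and software version 12.0.1.1 were used for the Ladakhi slides, and an Axon scanner and version 9.5.3.1 for the Sahiwal slides. Marks for spots well above background, saturated or outlying are those of the deposited files. The authors' deposited log2 value table is centred to a median of 0 for each probe, with a scaling that no source gives. All 11 columns carry the name of one array and the values of another from that breed (correlation of differences at least 0.99998), so it served only as an alternative for the breed comparison, and animal numbers are those of the scanner files. The medians of its columns lay between 1.60 and 2.31 for Ladakhi and between -0.73 and 0.00 for Sahiwal.

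Control spots were left out, 294 outlier-marked spots were set missing (one of them on a probe of the 46 genes, NOP16), spots of a probe were averaged, and log2 signals were scaled to the 75th percentile of the 2578 probes that every array detected, because most probes were not detected in Ladakhi. The 17866 probes that stood well above background on 4 or more arrays of 1 breed were tested, and 4034 were measured in both. No spot of a probe of the 46 genes was saturated. A gene is represented by its brightest probe over the 11 arrays, and 34 of the 46 genes have 2 or more probes. A probe dim in Ladakhi can lose its place in this way. The NOP56 and EBNA1BP2 probes brightest in Sahiwal (means of -1.46 and -1.91) did so, being above background on 0 and 2 Ladakhi arrays. Names come from the array files, updated for genes outside the set through accessions that matched for 26740 probes (ARS-UCD2.0, names only). Positions are on HGSC Btau_3.1, and whether a probe lies in coding or untranslated sequence was not determined.

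The test was limma 3.58.1 in R 4.3.3 (lmFit and eBayes, two-sided, p-values adjusted by Benjamini-Hochberg), and tables and figures were made with Python 3.11.15 and matplotlib 3.10.9. Where a gene was not above background on a Ladakhi array, a signal under the lowest level well above background of that array was raised to it before a second fit. Every measured gene of the set is named, genes on 0 to 3 Ladakhi arrays are named with a bound, a raised difference or, where it lay below the Ladakhi limit, the Sahiwal mean, and from each other pathway list the 2 measured genes with the largest difference are named. The members, lists and cell markers were chosen with earlier results of these data known, UTP14A among them. The comparisons of overlapping probes, probe position and AATAAA were added after the values were seen. On simulated data of 17866 probes, with 50 probes changed at each size, the test recovered 0 at a log2 change of 0.5, 3 at 1, 35 at 2 and 49 at 4, and made 5 false calls. Far fewer probes changed there than in the real comparison, so these recoveries are not those of the real one. Alternatives covered the scaling, background correction (normexp, offset 50, applied to median signals because the Ladakhi files lack means), filters, outlier and saturated spots, probe choice, slide and animal number as blocks, the value table and each array left out. One marker list is not reported here.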

Additional observations from a re-analysis of the deposited data

Results flagged for a closer look

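In 3 of the 28 groups of values (14 measured genes in each breed), 1 animal stood apart from the rest of its breed by Dixon's gap ratio, the gap to the nearest animal over the range of the group. Chance alone marks about 1 in 20 groups. DKC1 in Ladakhi animal 1 had a level of -5.52, a surrogate value below background, against -2.15 in the nearest Ladakhi animal (gap ratio 0.848). UTP14A in Sahiwal animal 6 was at -1.35, against -0.61 in the nearest Sahiwal animal (gap ratio 0.643). FBL in the same animal was at -1.82, against -0.95 (gap ratio 0.631). Both Sahiwal values were well above background. Without Sahiwal animal 6 the UTP14A difference was -2.21 and the FBL difference -1.09.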

How the results depend on the processing

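UTP14A stayed lower with every alternative tried and kept its call in 25 of 26, the exception being its second brightest probe (-1.05). NOL12 stayed higher in all 25 and kept its call in 23, the exceptions being the replicate block (0.76) and averaging over its probes (0.18). NOP16 kept its call in 11 of 25, so the count of lower genes fell to 1 under quantile, cyclic loess and normexp scaling, with outlier spots kept and in the value table. NOP16 then turned to 0.078 under normexp, 0.060 with outlier spots kept and 0.062 in the value table. Under each scaling the overall shift of measured probes was taken off first, which was 0.21 for quantile, 0.44 for cyclic loess and 0.21 for normexp. With 1 array left out, 1 gene was higher each time, 1 or 2 were lower, and the median ran from -0.28 to -0.03. With the mean of all tested probes of a gene, 0 genes were higher, 6 lower (NPM1 at -1.33 and NOP56 at -0.74 among them) and the median was -0.67, an average that takes in probes dim in Ladakhi. The second brightest measured probe could replace the first in 4 genes only (UTP14A, FBL, NCL and NOP56), and the others kept their probe. With it, 2 genes were higher (NCL and NOL12) and 1 was lower (NOP16). The NOL12 and NOP16 calls there are those of their brightest probe. That of NCL came from the upstream probe that could be measured only with a higher Ladakhi level. UTP14A lost its call, and NOP56 was at -0.59.

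Several genes that passed no test changed sign. IMP4, at 0.00, was at -0.00042 after median scaling, -0.43 with quantile, -0.016 with cyclic loess, -0.21 with normexp, -0.010 with the slide block, -0.019 with the replicate block, -0.20 with the mean of its probes, and from -0.34 to 0.72 with 1 array left out. NCL was at -0.0071 and EBNA1BP2 at 0.014 with normexp, and DKC1 at 0.22 with dim signals raised. With 1 array left out, NCL ran from -0.10 to 0.22 and DKC1 from -0.46 to 0.53. The calls over the other assembly lists, 6 of their measured genes, stayed between 5 and 8 under alternatives added after seeing the data.

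Animals of the same number in both breeds share only a number: deviations of same-numbered arrays correlated from -0.05 to 0.02. With number 1 to 5 as a replicate block, which drops Sahiwal animal 6, 0 genes were higher and 1 lower. The slide block had an estimated correlation of -0.11. Dim Ladakhi signal limits what can be shown: 32 of the 46 genes were not measured.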
